A study of Mus musculus with 17 samples.

Results

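The endoplasmic reticulum (ER) folding, stress and secretion machinery was examined here as 37 genes chosen by name among the 31647 features of a mouse heart count table. The rule names the genes and uses no measured value, but the list was drawn up with earlier results of these data known. They comprised 11 chaperones and their partners, 4 protein disulphide isomerases, 5 stress regulators, 9 subunits of the translocon complexes and the signal peptidase, 5 genes of the COPII coat and the KDEL receptors, and 3 genes that fold collagen. All 37 had a feature in the table, and all 37 passed the filter on low counts.

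The libraries came from wild-type male C57BL/6J mice aged 8 to 11 weeks at surgery. In 9 mice the left anterior descending coronary artery (LAD) was tied permanently and RNA was taken from the infarct zone (IZ) 5 days later. The 8 sham mice went through surgery without the ligation, and their RNA came from left ventricular tissue, also 5 days after surgery. The groups therefore differ in the piece of heart sampled as well as in the ligation. Each library is 1 mouse. The artery was never reopened, so the IZ samples are from a non-reperfused infarct. RNA was measured by MACE sequencing, in which each transcript is read at its 3' end and duplicates made by PCR are removed with molecular identifiers.

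Proteins bound for the cell surface, the matrix or the blood enter the ER through the Sec61 channel, are folded by chaperones and disulphide isomerases, and leave in vesicles with a COPII coat. When unfolded protein builds up, sensors in the ER membrane start the unfolded protein response, in which the transcription factors ATF6, XBP1 and ATF4 raise chaperone and degradation genes. CHOP, encoded by Ddit3, is a later factor of the same response and is linked to cell death. After an infarct, fibroblasts in the wound secrete large amounts of collagen, a protein with its own folding enzymes in the ER.

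Many chaperone genes carry the ER stress response element (ERSE), in which CCAAT and CCACG are held 9 bases apart, in front of their start. It was looked for on both strands in RefSeq promoters of build GRCm38.p6, each reaching from 250 bases before to 50 after the start, and 39 of 32851 promoters held it, which is 0.119%. A promoter was at hand for 30 of the 37 genes, and 7 of the 30 held the element. The 8 matches are shown because they lie in chaperone and disulphide isomerase genes whose levels are compared later. Each is written from CCAAT to CCACG, with the fixed bases in capitals.

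Hspa5: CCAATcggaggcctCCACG
Hsp90b1, distal: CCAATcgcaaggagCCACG
Hsp90b1, proximal: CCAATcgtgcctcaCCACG
Calr: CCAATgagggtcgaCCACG
Canx: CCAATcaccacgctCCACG
Dnajc3: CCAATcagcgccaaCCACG
Creld2: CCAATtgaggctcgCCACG
Pdia6: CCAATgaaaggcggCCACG

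The 250 bases before the start are printed for the 4 genes ranked highest by number of matches and then by log2 fold change. They are Hsp90b1 at chr10:86705445-86705694 (minus strand), Pdia6 at chr12:17266339-17266588 (plus strand), Creld2 at chr15:88819396-88819645 (plus strand) and Calr at chr8:84846932-84847181 (minus strand). Each is read 5′ to 3′ in the direction of the gene, and capitals mark the fixed bases of the ERSE on whichever strand it lies.

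Hsp90b1: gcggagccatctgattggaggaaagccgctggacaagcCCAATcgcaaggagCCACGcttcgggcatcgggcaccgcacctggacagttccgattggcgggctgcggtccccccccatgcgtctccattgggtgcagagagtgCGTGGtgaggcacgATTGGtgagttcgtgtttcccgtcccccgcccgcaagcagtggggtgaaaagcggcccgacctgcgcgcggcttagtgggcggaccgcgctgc
Pdia6: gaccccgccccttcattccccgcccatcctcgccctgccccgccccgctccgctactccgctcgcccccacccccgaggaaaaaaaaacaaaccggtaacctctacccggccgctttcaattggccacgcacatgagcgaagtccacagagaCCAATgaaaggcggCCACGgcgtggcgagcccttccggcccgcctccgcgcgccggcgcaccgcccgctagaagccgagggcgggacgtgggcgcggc
Creld2: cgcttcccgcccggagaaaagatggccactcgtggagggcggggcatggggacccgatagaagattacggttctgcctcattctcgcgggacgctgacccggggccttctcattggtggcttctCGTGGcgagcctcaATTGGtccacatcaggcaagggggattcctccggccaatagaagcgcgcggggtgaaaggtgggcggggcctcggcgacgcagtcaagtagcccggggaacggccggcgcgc
Calr: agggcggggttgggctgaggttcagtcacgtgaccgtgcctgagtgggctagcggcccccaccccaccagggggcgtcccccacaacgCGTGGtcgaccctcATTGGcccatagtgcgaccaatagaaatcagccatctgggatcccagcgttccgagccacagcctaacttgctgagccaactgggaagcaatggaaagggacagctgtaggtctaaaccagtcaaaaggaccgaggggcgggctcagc

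A match describes the letters and does not show that a factor binds there. The related element ERSE-II was in 0.0365% of all promoters and, among the 30 genes, in those of Dnajb11 and Herpud1. The XBP1 site TGACGTGG was in 0.676% of promoters, among them Sec23a, Sec24d and Kdelr3. The ATF4 and C/EBP site TGATGCAAT was in 0.192% of promoters and in none of these 30 windows.

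Levels are given as CPM, the counts a gene would have in a library of 1000000, with library sizes scaled by TMM, a method that sets the bulk of genes equal between libraries. Counts come from transcript ends, so levels are compared between mice and not between genes. Library totals ranged from 1237675 to 4738307 counts. The 37 genes took 0.170 to 0.243% of all counts in sham libraries and 0.377 to 0.955% in the IZ. Mitochondrially encoded features took 22.9 to 32.4% of counts in sham and 4.22 to 19.5% in the IZ, and cardiomyocyte markers fell from a summed 83817 to 108516 CPM in sham to 3205 to 36757 CPM in the IZ, all 10 of 10 being lower. The high cardiomyocyte markers in sham match the heart named in the labels. IZ replicate 1 stood apart: it had the highest mitochondrial share of the IZ libraries, 36757 CPM of cardiomyocyte markers against 3205 to 8298 CPM in the other 8, and the lowest IZ value for 28 of the 37 genes.

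The comparison of the IZ with sham asked how this machinery stood in the wound 5 days after the infarct. Of the 37 genes, 32 were higher in the IZ, 3 were lower and 2 did not pass the threshold (edgeR's quasi-likelihood test, Benjamini-Hochberg adjusted p under 0.05 over 12301 genes). Over all genes tested, 36.3% were higher and 33.1% lower, 69.5% in all. The median log2 fold change was 1.12 over the 37 genes and 0.05 over all genes tested. In tissue RNA of this kind, fewer cells of a type and less RNA per cell cannot be told apart.

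The direction was not shared by all roles. All 21 genes of the disulphide isomerases, the translocon and signal peptidase, the COPII coat and KDEL receptors, and collagen folding were higher. The chaperones had 9 higher, 1 lower and 1 that did not pass, and the 5 stress regulators had 2 higher, 2 lower and 1 that did not pass. The group medians ran from 1.94 for collagen folding and 1.85 for the disulphide isomerases, through 1.27 for the translocon, 1.12 for the coat and receptors and 0.99 for the chaperones, to -0.19 for the stress regulators.

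**Figure D1:**
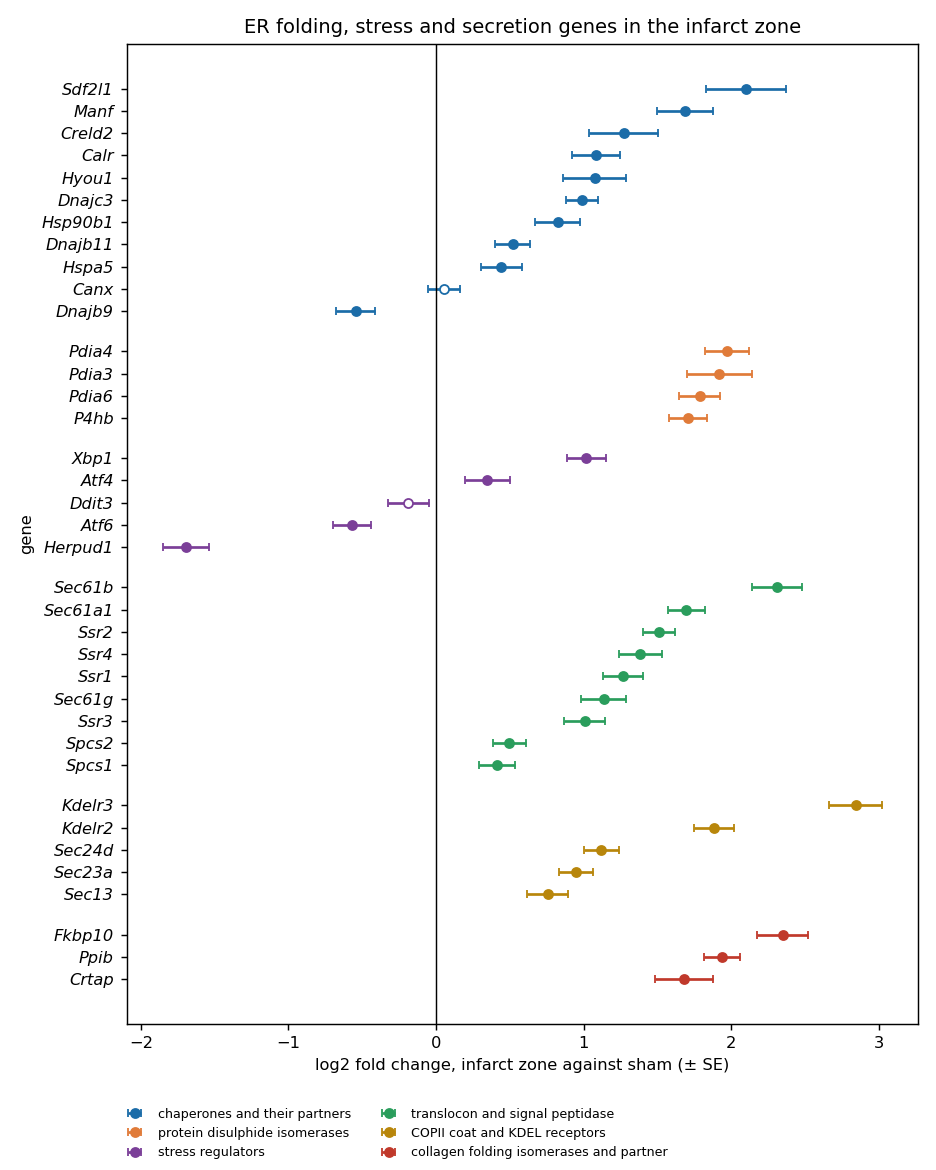
Log2 fold change (x axis) of each of the 37 genes (y axis), IZ against sham, with bars of ± SE, coloured by role; open circles did not pass the threshold. Kdelr3 lies farthest to the right at 2.84 and Herpud1 farthest to the left at -1.69.

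In 20 of the 37 genes every IZ library lay above every sham library, and Herpud1 was the gene with every IZ library below. The background over all genes tested was 16.6% above and 16.5% below. Leaving IZ replicate 1 out of the count of separated genes, the other 8 IZ libraries lay above every sham library in 28 genes, against 20.6% of all genes tested. By size, 23 genes were called higher by at least 1 on the log2 scale, where the background is 19.3%, and 4 by at least 2, where it is 8.33%. Without IZ replicate 1 the fit again gave 32 higher and 3 lower, with a median of 1.13.

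Markers of other cell types also differed between the groups, not all in the same direction. Fibroblast markers had a summed 1683 to 3279 CPM in sham and 13846 to 23291 CPM in the IZ, with 9 of 10 higher. Macrophage markers went from 447 to 627 CPM in sham to 2527 to 6239 CPM in the IZ, with 10 of 10 higher. Plasma cell and B cell markers, cells rich in ER, summed to 22.6 to 36.1 CPM in sham and 65.6 to 756 CPM in the IZ, with 4 of 11 genes tested. That sum rested mostly on Sdc1, with a median of 47.8 CPM in the IZ, and on IZ replicate 2, with 323 CPM of Igkc and 302 CPM of Ighm, while the plasma cell marker Mzb1 had too few counts to be tested and was below every sham library in 7 of 9 IZ libraries. None of the 11 was at 0 in every library of a group. Cd79b, 1 of the 4 tested, never exceeded 4 counts in a sham library and passed the filter mainly through the IZ. Neutrophil markers summed to 4.95 to 12.2 CPM in sham and 15.8 to 218 CPM in the IZ, with 4 of 7 genes tested, of which Csf3r and Mmp8 never exceeded 3 counts in a sham library and so passed the filter through the IZ. Endothelial markers had 5 of 10 lower and none higher, and smooth muscle and pericyte markers 3 of 8 higher and 4 lower. The part of these shifts in the values of the 37 genes was not tested.

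Summed over the 37 genes, sham libraries held 2677 to 3339 CPM with a median of 2817, and IZ libraries held 3589 to 6290 CPM with a median of 6022. IZ replicate 1 held the 3589, and the other 8 began at 5697. Every IZ library was therefore above every sham library in this sum, the smallest IZ value by the least. The 5 stress regulators summed to 330 to 528 CPM in sham and 285 to 410 CPM in the IZ, and these ranges overlapped. The lower IZ sum rested on Herpud1, since the other 4 summed to 203 to 270 CPM in sham and 220 to 348 CPM in the IZ, with 8 of 9 IZ libraries above every sham library and IZ replicate 1 at 220 CPM. The chaperones also overlapped, through IZ replicate 1 at 1229 CPM against 1213 to 1617 CPM in sham.

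**Figure D2:**
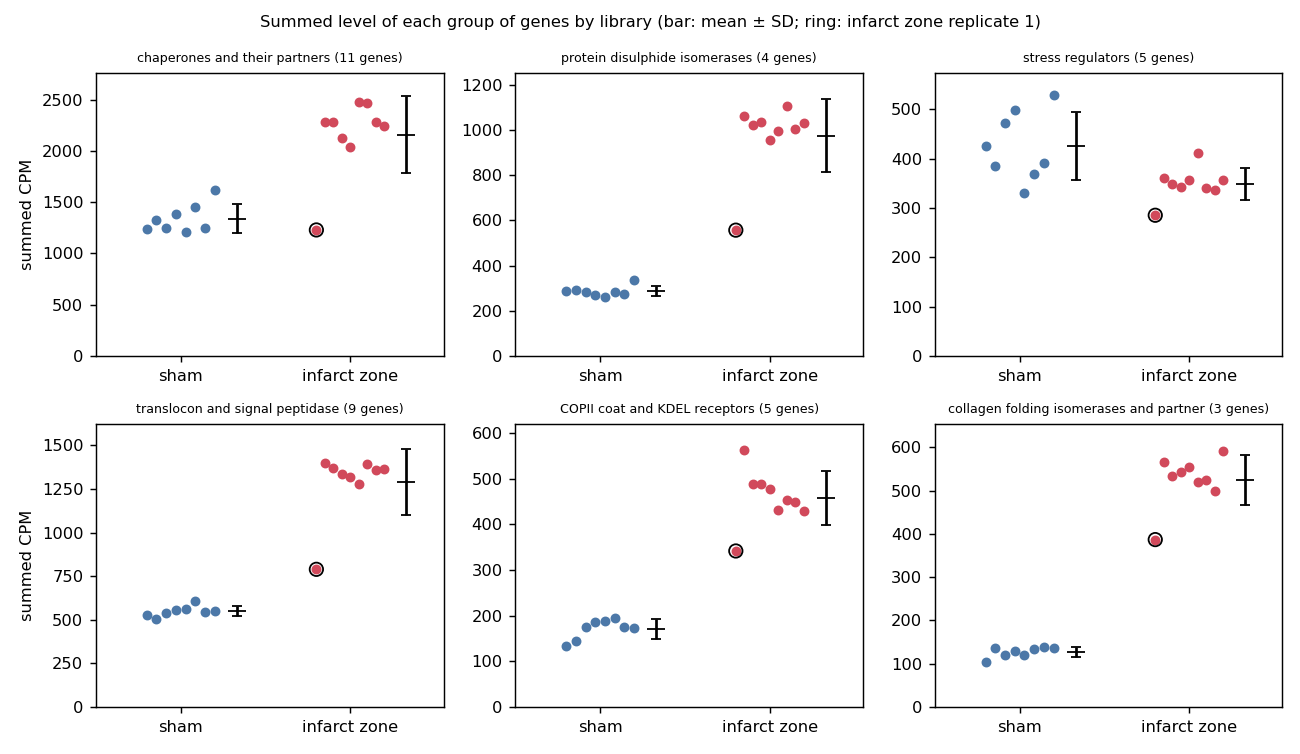
Summed CPM (y axis) of each group of genes in every library, sham in blue and IZ in red, with the mean and SD beside the points and a ring around IZ replicate 1. The disulphide isomerases, the translocon, the coat and receptors and the collagen folding genes are separated between the groups, the stress regulators overlap, and the chaperones overlap through the ringed library.

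Among the chaperones, Hspa5 encodes BiP, the central Hsp70 chaperone of the ER and the usual marker of the unfolded protein response. Its level was 363 to 518 CPM in sham, with a median of 396, and 307 to 660 CPM in the IZ, with a median of 588. The 8 IZ libraries other than replicate 1 lay between 525.7 and 660 CPM, above all sham libraries, and replicate 1 lay below all of them. The log2 fold change was 0.44 ± 0.14 (SE, adjusted p = 0.0078). Only Spcs1 at 0.41 and Atf4 at 0.35 had smaller increases among the 32 genes called higher.

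Hsp90b1 encodes GRP94, the Hsp90 chaperone of the ER. Sham libraries held 130 to 226 CPM with a median of 167, and IZ libraries 169 to 378 CPM with a median of 313. The ranges overlapped through IZ replicate 1 alone, the next IZ value being 245 CPM. The log2 fold change was 0.82 ± 0.15 (SE, adjusted p = 4.15e-05).

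Calr and Canx encode calreticulin and calnexin, the soluble and the membrane-bound chaperone of the same cycle, which holds newly glycosylated proteins. Calr had 206 to 413 CPM in sham, median 296, and 336 to 844 CPM in the IZ, median 649. Canx had 224 to 289 CPM in sham, median 257, and 191 to 309 CPM in the IZ, median 271. Calr was higher by 1.08 ± 0.16 (SE, adjusted p = 3.12e-06) on the log2 scale, and its groups overlapped only through IZ replicate 1. The value for Canx was 0.05 ± 0.11 (SE, adjusted p = 0.682), with the groups overlapping throughout.

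Sdf2l1 had the largest fold among the chaperones and their partners. It encodes a partner of BiP that keeps substrates soluble and is induced in ER stress. Sham libraries held 2.02 to 7.28 CPM, median 5.94, and IZ libraries 9.67 to 39.8 CPM, median 21.9. These were 3 to 15 counts a library in sham and 18 to 193 in the IZ, so Sdf2l1 passed the filter mainly through the IZ. Every IZ library was above every sham library, although the spread within the IZ was the widest of the 37 genes, with a coefficient of variation of 41.5%. The log2 fold change was 2.10 ± 0.27 (SE, adjusted p = 3.67e-07).

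Manf, Creld2 and Hyou1 encode further ER stress proteins: MANF is a secreted binder of BiP, CRELD2 a disulphide isomerase-like protein, and HYOU1 the exchange factor that recharges BiP. Manf went from 27.1 to 52.4 CPM in sham, median 45.5, to 58.9 to 171 CPM in the IZ, median 147, with no overlap. The increase was 1.69 ± 0.19 (SE, adjusted p = 3.62e-08) on the log2 scale. Manf shares its strand and part of its locus with Rbm15b, which had 815 counts in all libraries against 5380 for Manf. Creld2 was higher by 1.27 ± 0.23 and Hyou1 by 1.08 ± 0.21 (SE), each with an overlap between the groups.

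The J proteins, which bring substrates to BiP, differed in direction. Dnajc3, also known as p58IPK, had 41.0 to 57.4 CPM in sham, median 45.5, and 64.6 to 112 CPM in the IZ, median 97.1, with no overlap. It was higher by 0.99 ± 0.11 (SE, adjusted p = 4.13e-08), and Dnajb11 by 0.52 ± 0.12 (SE, adjusted p = 5.21e-04). Dnajb9 encodes ERdj4, a J protein that hands clients to degradation and restrains the sensor IRE1. It had 24.9 to 47.7 CPM in sham, median 32.3, and 17.7 to 29.5 CPM in the IZ, median 24.3, and 5 of the 9 IZ libraries lay below every sham library. Its log2 fold change was -0.55 ± 0.13 (SE, adjusted p = 0.0010).

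The 4 disulphide isomerases were the most even group. They make and reshuffle the disulphide bonds of secreted proteins. Their log2 fold changes lay between 1.71 and 1.97, and in all 4 every IZ library was above every sham library. P4hb encodes PDI itself, which is also a subunit of the enzyme that hydroxylates prolines in collagen. It had 155 to 211 CPM in sham, median 171, and 360 to 643 CPM in the IZ, median 583. Its log2 fold change was 1.71 ± 0.13 (SE, adjusted p = 7.07e-11).

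Pdia4, or ERp72, had 13.0 to 19.5 CPM in sham, median 15.9, and 34.8 to 79.5 CPM in the IZ, median 64.7. It was higher by 1.97 ± 0.15 (SE, adjusted p = 9.53e-11). Pdia6, or P5, an isomerase that works with BiP, had 51.0 to 66.7 CPM in sham, median 59.5, and 110 to 246 CPM in the IZ, median 209. It was higher by 1.78 ± 0.14 (SE, adjusted p = 1.01e-10). Pdia3, or ERp57, the partner of calnexin and calreticulin, had 24.0 to 49.3 CPM in sham, median 40.5, and 52.8 to 218 CPM in the IZ, median 142, and was higher by 1.92 ± 0.22 (SE, adjusted p = 4.71e-08). All 4 isomerases had their lowest IZ value in replicate 1, and each of these lay above the highest sham library.

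The stress regulators moved in different directions. Xbp1 encodes the transcription factor that IRE1 activates by splicing, a step that counts at the 3' end do not show. It had 26.9 to 43.9 CPM in sham, median 36.6, and 54.8 to 93.3 CPM in the IZ, median 77.98, with no overlap. The increase was 1.02 ± 0.13 (SE, adjusted p = 4.41e-07) on the log2 scale.

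Atf6 encodes the membrane-bound sensor that is cut in the Golgi to release a transcription factor. It had 32.5 to 59.1 CPM in sham, median 42.1, and 25.2 to 32.7 CPM in the IZ, median 31.1. In 7 of the 9 IZ libraries it was below every sham library, and the IZ libraries were the closest together of the 37 genes, with a coefficient of variation of 8.23%. The log2 fold change was -0.57 ± 0.13 (SE, adjusted p = 4.08e-04). With every library thinned to the smallest total the adjusted p was 0.0502, so the call was lost.

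Atf4 and Ddit3 belong to the arm of the response that starts at the kinase PERK. Atf4 had 75.5 to 159 CPM in sham, median 133, and 108 to 204 CPM in the IZ, median 160, and the groups overlapped. Its log2 fold change of 0.35 ± 0.15 (SE, adjusted p = 0.0487) lay at the threshold, and the call was lost without sham replicate 2, 3, 4, 5, 6 or 7, or IZ replicate 3, 5, 6 or 7, where the largest adjusted p was 0.122. DESeq2's Wald test and a fit with the replicate number as a block also lost it. Ddit3 had 26.2 to 34.8 CPM in sham, median 28.9, and 16.8 to 33.1 CPM in the IZ, median 27.4. Its groups overlapped and its log2 fold change was -0.19 ± 0.14 (SE, adjusted p = 0.243).

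Herpud1 encodes a membrane protein that organises the degradation of misfolded ER proteins and is induced in ER stress. It had 126 to 259 CPM in sham, median 179, and 42.4 to 77.6 CPM in the IZ, median 56.2. Every IZ library, replicate 1 at 65.3 CPM included, was below every sham library. Its log2 fold change was -1.69 ± 0.16 (SE, adjusted p = 2.41e-09), a level 3.24-fold lower on the linear scale. Its promoter held the ERSE-II element, as did that of Dnajb11, which was higher.

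**Figure D3:**
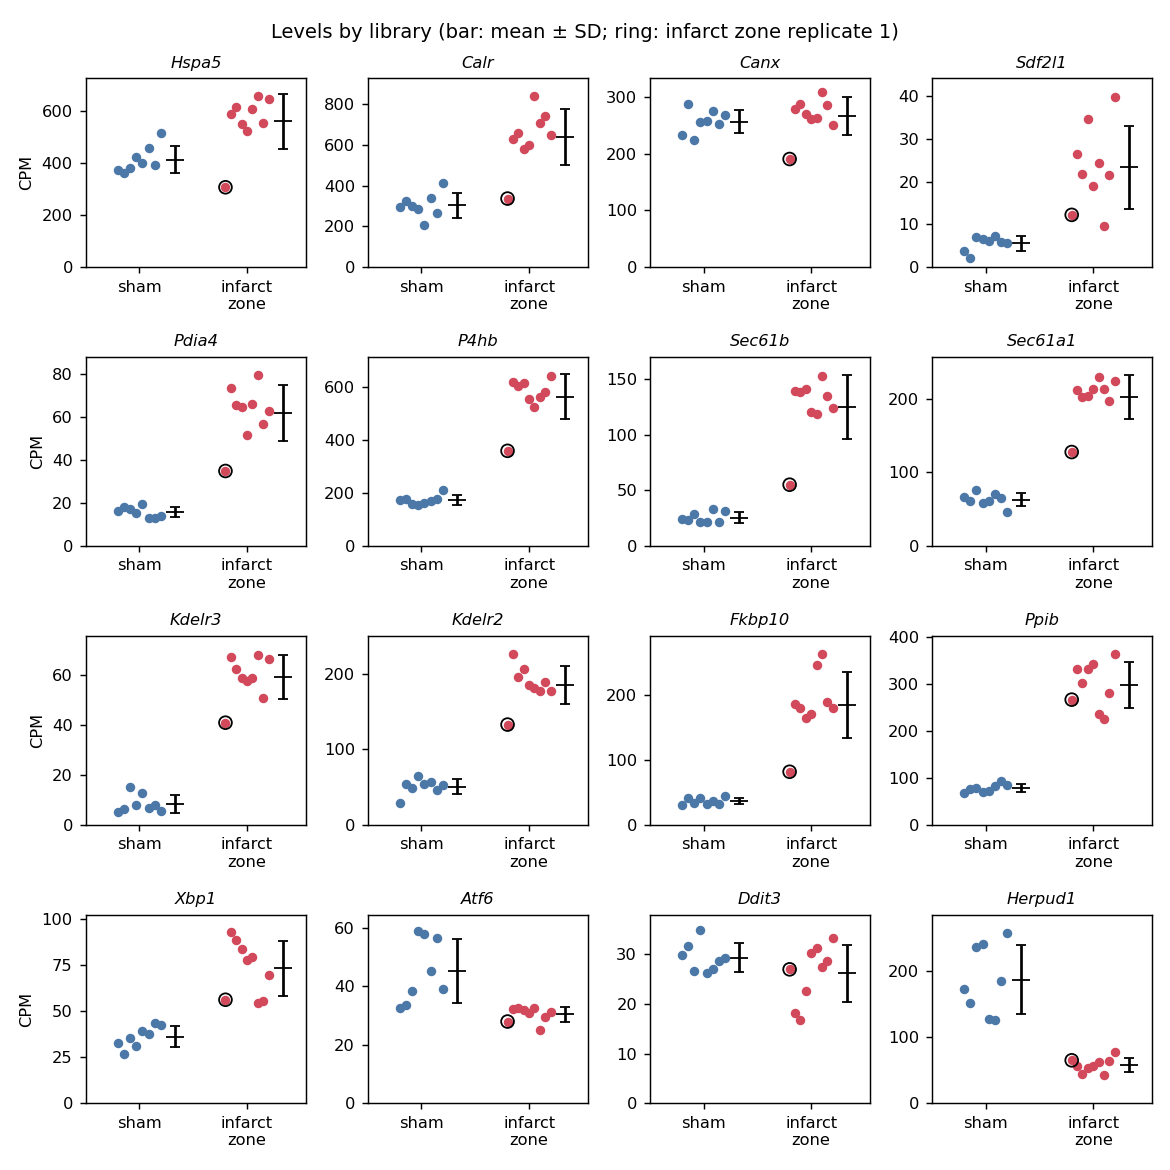
CPM (y axis, from 0) of 16 of the 37 genes in every sham (blue) and IZ (red) library, with the mean and SD beside the points and a ring around IZ replicate 1. Herpud1 is lower in all 9 IZ libraries, and Canx and Ddit3 overlap. The ringed library lies below the other IZ libraries in Hspa5, Calr, Canx, Pdia4, P4hb, Sec61b, Sec61a1, Kdelr3, Kdelr2 and Fkbp10.

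The direction of the small negative values depends on the scaling. When libraries were scaled by their totals alone, the median log2 fold change of all genes moved from 0.05 to 1.13, a shift of 1.08. On that scale Dnajb9 was at 0.54, Atf6 at 0.52, Ddit3 at 0.88 and Canx at 1.14, so that 36 genes were called higher and 1, Herpud1 at -0.64, lower, and the stress regulators had 4 higher and 1 lower. Over all genes 9176 were then higher and 1534 lower. Relative to the median of all genes under the same scaling, Dnajb9 was at -0.59, Atf6 at -0.61, Ddit3 at -0.25, Canx at 0.0085 and Herpud1 at -1.77. The values relative to the median under TMM were -0.60, -0.62, -0.24, -0.0022 and -1.75 in the same order.

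The Sec61 channel, through which new proteins pass the ER membrane, has 3 subunits, and all 3 were higher. Sec61b had 21.0 to 32.8 CPM in sham, median 23.6, and 54.9 to 153 CPM in the IZ, median 135. Sec61a1, the pore itself, had 45.7 to 75.3 CPM in sham, median 63.0, and 127 to 230 CPM in the IZ, median 211. No IZ library overlapped with sham in either gene. The log2 fold changes were 2.31 ± 0.17 (SE, adjusted p = 4.70e-11) for Sec61b and 1.70 ± 0.13 (SE, adjusted p = 6.30e-11) for Sec61a1, and Sec61g was higher by 1.13 ± 0.15 (SE, adjusted p = 7.69e-07). Outside IZ replicate 1 the Sec61a1 level was the steadiest of the 37 genes, with a coefficient of variation of 5.19% over 8 mice. The 3' end of Sec61b is 98.3% identical to that of Gm10320 over 474 bases, and Gm10320 had 8.23% as many counts, so some reads may have been assigned to either.

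Sec61a2 encodes a second form of the pore and was in a list of neighbouring genes. It stood at 13.0 to 24.2 CPM in sham and 15.3 to 24.7 CPM in the IZ, with a log2 fold change of 0.00 ± 0.15 (SE, adjusted p = 0.980). The pair of pore genes therefore had 1 member that was higher and 1 that did not pass the threshold, and the difference between them was not tested.

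The 4 TRAP subunits, which sit beside the channel and help weak signal sequences through, were all higher. Their log2 fold changes were 1.51 for Ssr2, 1.38 for Ssr4, 1.27 for Ssr1 and 1.01 for Ssr3, with errors of 0.11 to 0.14. Ssr2, the steadiest gene in sham with a coefficient of variation of 7.36%, had 55.7 to 70.1 CPM there and 126 to 219 CPM in the IZ. Spcs1 and Spcs2, the accessory subunits of the peptidase that removes signal sequences, had smaller values. Spcs1 had 73.3 to 106 CPM in sham, median 82.7, and 77.9 to 145 CPM in the IZ, median 112, with an overlap, and its log2 fold change was 0.41 ± 0.12 (SE, adjusted p = 0.0043). Spcs2 was higher by 0.50 ± 0.11 (SE, adjusted p = 4.69e-04).

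Kdelr3 had the largest fold change of the 37 genes. KDEL receptors catch chaperones that escape to the Golgi and return them to the ER. Kdelr3 had 4.88 to 14.9 CPM in sham, median 7.14, and 40.9 to 68.2 CPM in the IZ, median 59.0. The lowest IZ library was thus well above the highest sham library, sham replicate 3. The log2 fold change was 2.84 ± 0.18 (SE, adjusted p = 7.25e-12), a 7.11-fold level, and ranked 503 from the highest among the 12301 genes tested.

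Kdelr2 had 28.7 to 64.6 CPM in sham, median 53.0, and 133 to 227 CPM in the IZ, median 186, with no overlap. It was higher by 1.88 ± 0.14 (SE, adjusted p = 5.09e-11). The remaining receptor, Kdelr1, was higher by 0.54 ± 0.11 (SE, adjusted p = 1.48e-04), with 95.4 to 139 CPM in sham and 136 to 197 CPM in the IZ. The 3 receptors were thus all called higher, with values from 0.54 to 2.84.

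Sec23a, Sec24d and Sec13 encode coat proteins of the COPII vesicles that leave the ER, Sec24d being one of the cargo-binding forms. Sec24d had 22.9 to 38.0 CPM in sham, median 30.9, and 52.8 to 82.0 CPM in the IZ, median 67.9. It was higher by 1.12 ± 0.12 (SE, adjusted p = 1.75e-08), with no overlap. Sec23a was higher by 0.95 ± 0.11 and Sec13 by 0.76 ± 0.14 (SE). Sec23a and Sec24d did not overlap between the groups, and Sec13 overlapped in 2 IZ libraries. The XBP1 letters TGACGTGG stood in front of Sec24d and Kdelr3 and just after the start of Sec23a.

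Ppib, Fkbp10 and Crtap serve the folding of collagen: cyclophilin B and CRTAP belong to the complex that modifies prolines in collagen chains, and FKBP65, from Fkbp10, is a proline isomerase and collagen chaperone. Fkbp10 had 30.4 to 43.5 CPM in sham, median 34.7, and 81.5 to 263 CPM in the IZ, median 180. Ppib had 67.8 to 92.3 CPM in sham, median 76.8, and 226 to 365 CPM in the IZ, median 303. Crtap had 5.42 to 19.5 CPM in sham, median 13.8, and 27.1 to 50.04 CPM in the IZ, median 41.0. In none of the 3 genes did an IZ library reach down to sham. The log2 fold changes were 2.35 ± 0.17 for Fkbp10, 1.94 ± 0.12 for Ppib and 1.68 ± 0.20 for Crtap (SE, largest adjusted p = 7.15e-08). Fibroblast markers, which include collagens, were higher in the same libraries, and their part in these values was not tested.

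Ratios between genes within a library do not depend on how libraries are scaled. Each was tested exactly, two-sided, by permuting which mice belong to which group, with p adjusted over 8 ratios. The pairs were chosen with earlier results of these data known, which the adjustment does not cover. The log2 ratio of Hspa5 to Sec61b was 4.01 ± 0.21 (SD, n = 8) in sham and 2.19 ± 0.18 (SD, n = 9) in the IZ, a difference of -1.82. All 9 IZ libraries were below every sham library, IZ replicate 1 included, and the permutation p of 4.11e-05 is the smallest these splits can give (adjusted p = 1.10e-04). Sec61b thus rose more than Hspa5. Sec61b had the largest fold change of its group and Hspa5 the smallest of the chaperones called higher. The pair therefore does not stand for the 2 groups.

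Within the chaperones, the Calr to Canx ratio went from 0.21 ± 0.28 (SD, n = 8) to 1.23 ± 0.23 (SD, n = 9), higher by 1.02 with all 9 IZ libraries above sham (exact permutation, adjusted p = 1.10e-04). The ratio of Sdf2l1 to Hspa5 was higher by 1.49, with 8 of 9 IZ libraries above every sham library (exact permutation, adjusted p = 4.61e-04). Sdf2l1 had only 3 to 15 counts a library in sham. Among the regulators, the Xbp1 to Atf6 ratio went from -0.29 ± 0.32 (SD, n = 8) to 1.23 ± 0.21 (SD, n = 9), higher by 1.53 with no overlap (exact permutation, adjusted p = 1.10e-04). The Ddit3 to Atf4 ratio was lower by a log2 difference of -0.57, with 6 of 9 IZ libraries below every sham library (exact permutation, adjusted p = 0.0126).

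Between subunits and paralogs, Sec61b rose more than Sec61a1, by 0.56 (exact permutation, adjusted p = 0.0035), and Kdelr3 more than Kdelr2, by 0.93 (exact permutation, adjusted p = 4.61e-04), each with 4 of 9 IZ libraries above every sham library. For Fkbp10 against Ppib the difference was 0.36 and did not pass (exact permutation, adjusted p = 0.130). It was 0.48 and passed without IZ replicate 1 (exact permutation, adjusted p = 0.0129).

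**Figure D4:**
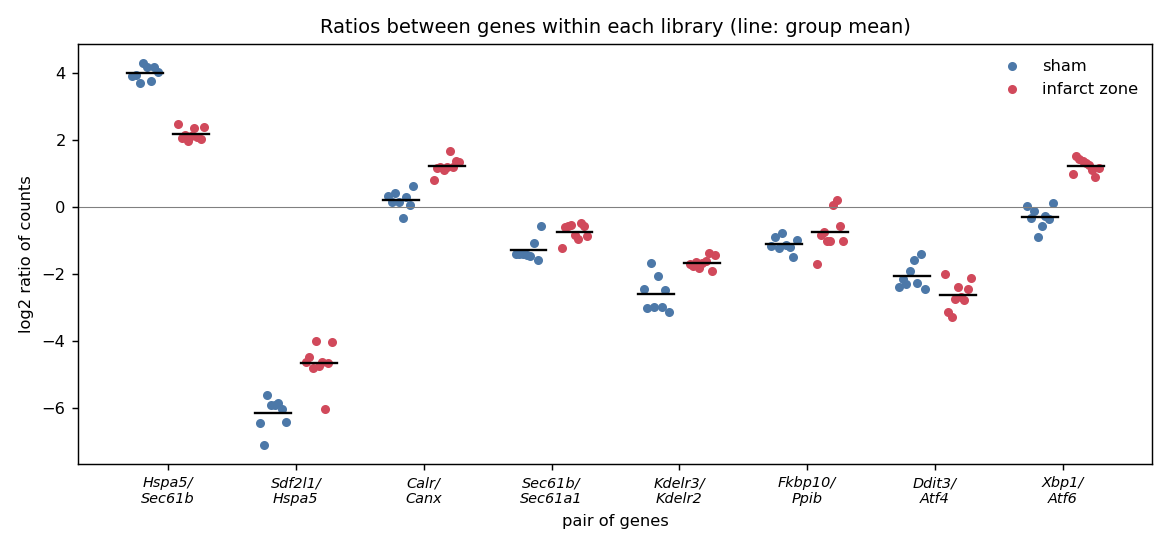
Log2 ratio of counts (y axis) for 8 pairs of genes (x axis) in every library, sham in blue and IZ in red, with a line at each group's mean. The groups are apart for Hspa5/Sec61b, Calr/Canx and Xbp1/Atf6 and overlap for the other 5 pairs.

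Sums of whole groups were also set against each other. Such sums weigh abundant genes most. In sham, Hspa5, Calr, Canx and Hsp90b1 averaged 414, 302, 257 and 171 CPM of the 1340 CPM of the chaperones. P4hb averaged 173 of the 286 CPM of the isomerases, and Atf4 126 of the 237 CPM of the stress regulators without Herpud1. By gene, the median log2 fold changes were 0.99 for the chaperones, 1.27 for the translocon and 1.85 for the isomerases. The translocon and signal peptidase summed to 0.340 to 0.464 times the chaperones in sham and 0.516 to 0.647 times in the IZ. The disulphide isomerases summed to 0.195 to 0.233 times the chaperones in sham and 0.402 to 0.487 times in the IZ. The stress regulators summed to 0.587 to 0.962 times the translocon in sham and 0.244 to 0.361 times in the IZ, a 2.82-fold lower mean, and without Herpud1 to 0.360 to 0.491 times in sham and 0.201 to 0.278 times in the IZ, a 1.90-fold lower mean. None of these 4 ranges overlapped between the groups, and no test was run on them.

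The genes with and without an ERSE had overlapping fold changes. The 7 genes with it had a median log2 fold change of 0.99, from 0.05 for Canx to 1.78 for Pdia6, and 6 were higher. The 23 genes with a promoter but without ERSE had a median of 1.12, from -1.69 to 2.84, and 20 were higher. Outside the 37 genes, 6 tested genes held the element, of which 3 were higher and 1 was lower. These are descriptions of a few genes and were not tested.

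Within the IZ, the 9 mice gave 6 relations between genes on the log2 CPM scale, tested by exact permutation over all pairings. Hspa5 and Hsp90b1 had Pearson's r = 0.80 (exact permutation p = 0.065, adjusted p = 0.130) and Spearman's rho = 0.33 (exact permutation p = 0.385, adjusted p = 0.982). Without IZ replicates 1 and 7, the farthest from the median of Hspa5, r was -0.55, so the relation rested on those libraries. The pairs of Hspa5 with Xbp1, Col1a1 and Myh6, of Ppib with Col1a1 and of Ddit3 with Atf4 did not pass either (smallest adjusted p = 0.130 for r and 0.982 for rho). Hspa5 with Myh6, a cardiomyocyte marker, had r = -0.82 and rho = -0.37, and r = 0.01 without the same 2 libraries. Ppib with Col1a1 had r = 0.16 over all 9 and r = 0.79 without IZ replicates 6 and 7, the farthest from the median of Ppib (exact permutation p = 0.034, not adjusted).

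Other genes of the same machinery were described in 8 lists of neighbours. The lists held 181 genes, 179 of which had a feature, and the medians of all 8 were above the 0.05 of all genes tested. The collagen modifying enzymes had the highest median, 1.60, with 14 of 16 tested genes higher and 1 lower. P4ha3, a subunit of collagen prolyl hydroxylase, had the largest value at 4.39 ± 0.28 (SE, 0.672 to 4.95 CPM in sham, 20.8 to 57.6 CPM in the IZ), and Tmem38b, an ER potassium channel, the smallest at -0.92 ± 0.14. P4ha3 never exceeded 10 counts in a sham library and passed the filter mainly through the IZ. Without P4ha3 the list median was 1.42. The other oxidative folding genes and chaperones had 23 of 29 higher and 3 lower, with a median of 0.99, from -1.40 for Tmx2, a membrane thioredoxin, to 2.86 for Pdia5, a further disulphide isomerase.

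The N-glycosylation genes, which attach and trim sugars in the ER, had 17 of 20 tested genes higher and 2 lower, with a median of 0.83, from -1.14 for Dpm1 to 1.89 for Stt3a, the catalytic subunit beside the channel. The list of COPII, COPI and cargo receptor genes also holds genes that are neither coats nor cargo receptors. It had 28 of 42 higher and 4 lower, with a median of 0.56. The values ran from -1.07 for Sar1b, a COPII GTPase, to 2.55 for Creb3l1, a transcription factor that drives secretory genes. Sec16b, 1 of the 28, never exceeded 10 counts in a sham library, and without it the median was 0.55. The list of signal recognition, docking and other translocation genes also holds genes of the channel itself, such as Sec61a2. It had 8 of 20 higher and 2 lower, with a median of 0.23, from -0.60 for Srp68 to 2.16 for Tram2. The share called higher there, 8 of 20, was close to the background of 36.3%. With libraries scaled by their totals, the calls were 19 higher and 0 lower for N-glycosylation, 41 and 0 for the coats and cargo receptors and 20 and 0 for signal recognition. Over all genes 9176 of 12301 were called higher on that scale.

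On the stress side, the sensors and their processing enzymes had 5 of 7 higher and none lower, with a median of 0.50, from 0.12 for Mbtps2, which did not pass, to 0.78 for Eif2ak3, which encodes PERK. Of these 5 calls, 2 were left with every library thinned to the smallest total. Under a filter of at least 50 counts on average, which leaves fewer genes to test, 3 were called. ER-associated degradation had 12 of 19 higher and 4 lower, with a median of 0.43, from -0.59 for Ube2g2, a ubiquitin-conjugating enzyme, to 2.44 for Edem1, which marks misfolded glycoproteins for removal. Edem1 had 4.97 to 15.7 CPM in sham and 38.4 to 84.5 CPM in the IZ, without overlap, against the fall of Herpud1 in the same process. On the scale of library totals all 19 were higher, as were 9176 of all 12301 genes tested.

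The targets of ATF4 and CHOP had 12 of 19 tested genes higher and 3 lower, with a median of 1.25. Of the 12, 6 (Sesn2, Psat1, Phgdh, Mthfd2, Slc7a5 and Gdf15) never exceeded 10 counts in a sham library and passed the filter mainly through the IZ, and the other 13 tested genes had a median of 0.18. Chac1, at 2.35 CPM in sham and 1.18 CPM in the IZ on average, was among the 3 that were not tested. Phgdh, which starts serine synthesis, was the highest at 3.35 ± 0.39 (SE), with 0 to 3 counts a library in sham and 8 to 49 in the IZ. Vldlr, a lipoprotein receptor of heart muscle, was the lowest at -3.14 ± 0.39 (SE), with 136 to 210 CPM in sham and 8.82 to 90.1 CPM in the IZ, the 90.1 CPM being IZ replicate 1. Under a filter of at least 50 counts on average, which leaves fewer genes to test, 3 of these genes were called higher. On the scale of library totals 18 were higher and 1 lower, against 9176 higher and 1534 lower over all 12301 genes.

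**Figure D5:**
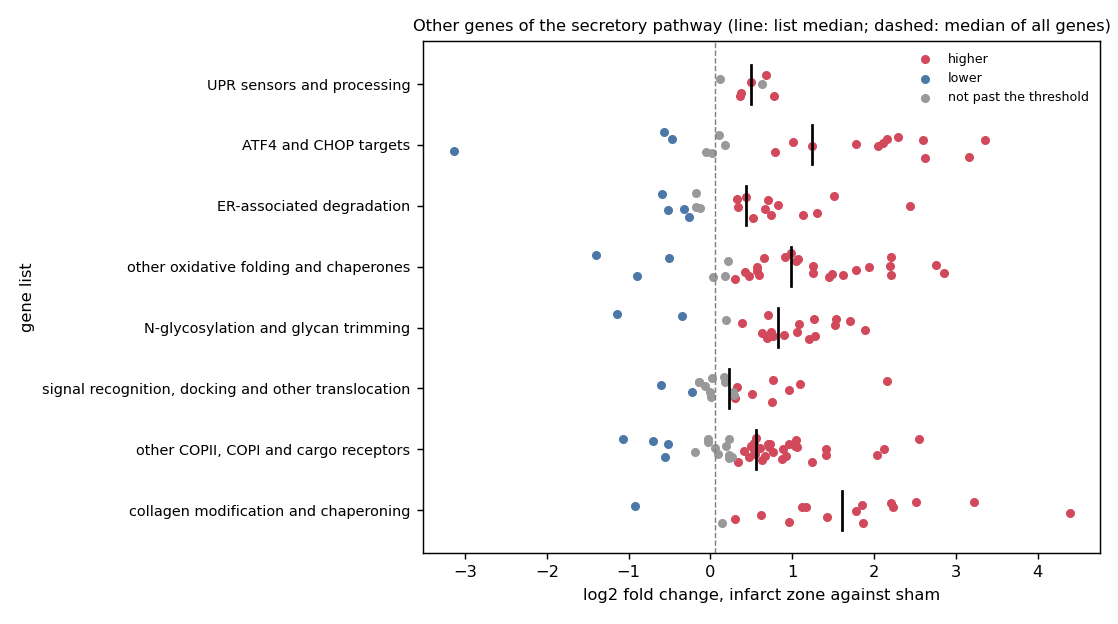
Log2 fold change (x axis), IZ against sham, of each tested gene in 8 lists of other secretory pathway genes (y axis), red where higher, blue where lower and grey where not past the threshold. The black line is the list median, highest for collagen modification at 1.60, and the dashed line the median of all genes at 0.05.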

How the data were processed

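The deposited table holds raw read counts per gene for 17 hearts. Per the labels and the study's methods, the authors removed PCR duplicates by unique molecular identifiers, trimmed adapters with Cutadapt, mapped reads to mm10 and counted them with HTSeq. The submitters' processing notes also name bcl2fastq, Bowtie2 and DESeq2. The annotation release and the treatment of reads with several matches are not given in the sources used here. Samples were grouped by the treatment in the labels.

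Names came from the gene name table for 31521 of 31647 features, with gene positions from GENCODE on the same build, and 35 merged features (0.0919 to 0.215% of counts) matched no single gene. Counts were fitted in edgeR 4.0.16 (R 4.3.3) with TMM scaling, filterByExpr at its default minimum of 10 counts and the two-sided quasi-likelihood test, with Benjamini-Hochberg adjustment over all 12301 genes kept and a threshold of 0.05. Both groups entered without covariates. The SE of a log2 fold change was derived from the test, as its size divided by the square root of the F statistic. The study compared the same groups with DESeq2's Wald test. The scripts were tested on simulated data, where the fit was given few changed genes, as many higher as lower. That test does not cover the scaling of data in which 69.5% of genes are called. TMM factors were 0.616 to 1.53. Ratios used counts plus 1. Alternatives were other scalings, DESeq2 1.42.0, other filters, thinning, a block for the replicate number and leaving out each library. Copies of 3' ends were sought with BLAST 2.17.0 over the last 500 bases of each transcript, from 95% identity over 100 bases.

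The 37 genes were given by name and all were described. The neighbouring lists and markers were written from general knowledge. Of each list the highest and lowest gene are named. Genes, lists and tests were chosen with earlier results of these data known. Sec61a2 and Kdelr1 were singled out after their values were seen, as paralogs of named genes. The retrieval signals at protein ends are not reported here. Replicates are separate mice, and no 2 libraries agreed within sampling noise: counts of any pair differed by 2.41 to 252 times the variance that sampling gives.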

Additional observations from a re-analysis of the deposited data

Results flagged for a closer look

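In 92 sets of values, each 1 gene, sum or ratio in 1 group, the highest or lowest library was compared with the rest by its gap to the nearest value, as a share of the range. 14 stood far from the others, where chance gives about 1 in 20, or 4.6. Of the 14, 11 were in IZ replicate 1, each the lowest of its group, so they are not 11 separate events. They were Hspa5 at 307 CPM, Canx at 191 CPM, Dnajc3 at 64.6 CPM, Pdia6 at 110 CPM, P4hb at 360 CPM, Sec61a1 at 127 CPM, Sec61b at 54.9 CPM, Sec61g at 45.2 CPM, Ssr2 at 126 CPM, Ssr3 at 117 CPM and the sum of all 37 genes at 3589 CPM. The same library held 36757 CPM of cardiomyocyte markers, 13846 CPM of fibroblast markers and 2527 CPM of macrophage markers, and the part of these in its low values was not tested. In sham, Hyou1 was high at 16.6 CPM in replicate 4 (next value 10.8 CPM) and P4hb was high at 211 CPM in replicate 8 (next value 179 CPM). In IZ replicate 7 the log2 ratio of Sdf2l1 to Hspa5 was low at -6.02, the next being -4.81.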

How the results depend on the processing

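Of 961 results for single members under 26 alternatives (25 for Hyou1, which the filter on a mean of 50 counts left out), 944 kept their direction and side of the threshold, and 32 of the 37 genes did so under every alternative run. Total counts alone as library sizes changed most, since the median of all genes moved to 1.13. Members called lower went from 3 to 1 and chaperones called lower from 1 to 0. Stress regulators went to 4 higher and 1 lower, with a median of 0.88. Dnajb9 turned to 0.54, Atf6 to 0.52, Ddit3 to 0.88, Ube2g2 to 0.48, Sar1b to 0.0086, Srp68 to 0.46 and Tmem38b to 0.15. The degradation list went to 19 higher and 0 lower, signal recognition to 20 and 0. The number called lower went to 1 for ATF4 targets, 1 for oxidative folding, 0 for N-glycosylation, 0 for COPII and COPI and 0 for collagen modification. All genes went to 9176 higher and 1534 lower.

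With upper quartile scaling, 2 degradation genes, 1 N-glycosylation gene and 1 signal recognition gene were lower. With DESeq2 size factors 1 signal recognition gene was lower. DESeq2's Wald test gave 1 stress regulator higher, 1 N-glycosylation gene lower and 1 signal recognition gene lower. Without a filter these lists had 2 degradation genes, 1 N-glycosylation gene and 1 signal recognition gene lower. From a mean of 50 counts, fewer genes were tested: 2747 were higher and 2492 lower, with 3 sensors and 3 ATF4 targets higher, 0 N-glycosylation genes lower and 1 signal recognition gene lower. Thinned to the smallest total, which limits low counts, 2 sensors were higher, 1 stress regulator was lower and 1 ATF4 target was lower. Elsewhere the cause was not tested.

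Replicate numbers are shared by the groups but belong to different mice. Deviations of equal numbers correlated between -0.22 and 0.13, over 0.1 in 1 of 8 pairs, and 1 sham library correlated best with its own number. With the number as a block, 31 members were higher and 3 lower, 1 stress regulator was higher and 1 signal recognition gene lower, and over all genes 4220 were higher and 3858 lower.

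Leaving out each library in turn gave 1 to 2 stress regulators higher (Atf4). It gave 2 to 4 degradation genes lower, with 2 without IZ replicate 3, 4 or 5. It gave 1 to 2 N-glycosylation genes lower, with 1 without sham replicates 1, 3, 4, 5, 6 or 7 or IZ replicates 2, 4, 5, 6, 7 or 8, and 1 to 2 signal recognition genes lower, with 1 without sham replicates 1, 5, 6, 7 or 8 or IZ replicates 1 to 8. The Fkbp10 to Ppib difference was 0.24 to 0.48, past the threshold at 0.48 without IZ replicate 1. The correlations ranged from -0.10 to 0.96 for Hspa5 and Hsp90b1, -0.23 to 0.58 for Hspa5 and Xbp1, -0.0173 to 0.43 for Ppib and Col1a1, and -0.17 to 0.17 for Ddit3 and Atf4, where leaving out IZ replicate 6 or 7 turned the sign and elsewhere replicate 1 did. Without the 2 farthest libraries r was -0.55 for Hspa5 and Hsp90b1, -0.21 for Hspa5 and Col1a1 and 0.0128 for Hspa5 and Myh6, and it was 0.79 for Ppib and Col1a1.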
